A study of Homo sapiens with 39 samples.

Results

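The genes described here were 50 markers of dividing cells, 20 of S phase and 30 of G2 and M phase, taken by symbol from a gene expression table with 60671 Ensembl identifiers. All 50 symbols were found, each under 1 identifier, and all 50 passed the filter on low values in every comparison. They were followed through 39 RNA-seq libraries of the established human melanoma lines A375 and WM115. In both lines an enhancer region of SOX10 had been deleted, and the genotype labels name the deleted region R1 or R4. The libraries came from unedited cells (WT) and from clones, each of which is 1 clone. For A375 they were WT (4 libraries), R1 clones 1.1 (3) and 1.2 (4), and R4 clones 4.1 (4) and 4.2 (3). For WM115 they were WT (4), R1 clones 1.1 (5) and 1.2 (3), R4 clones 4.1 (3) and 4.2 (3), and a clone 1.3 (3). The title of WM115 clone 1.3 fits R1 and its genotype label reads R4, so it was compared with WT as a group of its own and entered no comparison of regions. Nothing in the labels says that libraries of a clone came from separate cultures, so p-values measure the spread between libraries, which may be technical. The question was whether these genes were lower where SOX10 or MITF was lower.

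SOX10, which specifies neural crest cells and melanocytes, switches on MITF, the transcription factor that directs pigment genes and, in melanoma, is tied to the choice between dividing and invading. A cell that commits to division releases E2F factors from the RB protein, and E2F switches on the genes for loading and firing replication origins, copying DNA and making nucleotides. Later in the cycle the MuvB complex, joined by MYBL2 (B-MYB) and then FOXM1, switches on the genes for chromosome condensation, the spindle, the kinetochore and mitotic exit. Messenger levels of both sets rise and fall with the share of cells in the cycle. In bulk RNA, fewer cycling cells and less RNA per cycling cell cannot be told apart.

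The promoters of the 2 sets carry different letters. Of 50 members, 41 had a promoter in the RefSeq table (GRCh38.p14), 17 of S phase and 24 of G2/M, and the 250 bases before the start were searched on both strands. The cell cycle homology region (CHR, read here as TTTGAA and also as TTCGAA), which MuvB binds, was found in 13 of 24 G2/M promoters (54.17%) and in 2 of 17 S promoters (11.76%), against 14.59% of all 27305 promoters. An E2F motif (TTCGCGC or TTCCCGC or TTGGCGC or TTGCCGC) was found in 11 of 17 S promoters (64.71%) and 4 of 24 G2/M promoters (16.67%), against 11.02% of all. The CCAAT box, which NF-Y binds, was found in 76.47% of S and 79.17% of G2/M promoters, against 33.04% of all. A CHR together with a CCAAT box was present in 50% of G2/M promoters and 5.244% of all promoters. A match describes letters and not a bound site. 2 promoters of each set are shown because they carry the motifs of their set and belong to genes described below; capitals mark the CHR, the CCAAT box and the E2F motif in either orientation. CDC20, the activator of the anaphase-promoting complex, was read at chr1:43358731-43358980 (plus strand), and TOP2A, the topoisomerase that untangles sister chromosomes, at chr17:40417897-40418146 (minus strand). E2F1, the transcription factor of S phase entry, was read at chr20:33686386-33686635 (minus strand), and MCM3, a subunit of the replicative helicase, at chr6:52284743-52284992 (minus strand). Neither S promoter holds a CHR, and neither G2/M promoter holds an E2F motif.
CDC20: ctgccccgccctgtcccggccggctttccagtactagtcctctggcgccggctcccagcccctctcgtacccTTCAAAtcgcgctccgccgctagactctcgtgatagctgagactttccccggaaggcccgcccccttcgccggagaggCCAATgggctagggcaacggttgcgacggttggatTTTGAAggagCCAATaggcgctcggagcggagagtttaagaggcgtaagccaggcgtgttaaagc
TOP2A: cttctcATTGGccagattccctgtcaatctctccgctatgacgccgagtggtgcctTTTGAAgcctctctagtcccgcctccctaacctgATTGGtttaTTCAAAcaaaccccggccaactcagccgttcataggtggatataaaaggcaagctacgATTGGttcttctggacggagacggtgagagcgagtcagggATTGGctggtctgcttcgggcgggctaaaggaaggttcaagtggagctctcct
E2F1: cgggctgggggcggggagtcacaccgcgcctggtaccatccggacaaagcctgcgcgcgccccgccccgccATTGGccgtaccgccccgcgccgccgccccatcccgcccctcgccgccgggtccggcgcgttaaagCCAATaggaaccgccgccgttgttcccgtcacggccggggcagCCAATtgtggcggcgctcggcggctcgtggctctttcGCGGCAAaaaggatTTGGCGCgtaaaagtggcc
MCM3: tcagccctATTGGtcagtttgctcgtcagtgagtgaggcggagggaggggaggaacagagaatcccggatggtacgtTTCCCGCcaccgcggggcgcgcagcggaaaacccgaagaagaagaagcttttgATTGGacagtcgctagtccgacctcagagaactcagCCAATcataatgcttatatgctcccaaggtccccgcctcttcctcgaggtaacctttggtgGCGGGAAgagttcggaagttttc

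Values are TPM, a transcript's share of its library corrected for transcript length, so levels can be compared between genes. TPM sums to a fixed total in every library, and a rise of other genes lowers a share. The number of genes at 1 TPM or more was 14128 to 16140 in A375 and 14084 to 15528 in WM115. Mitochondrial genes held between 0.968% and 4.92% of the total in A375 libraries and between 4.71% and 19.4% in WM115 libraries. Genes of ribosomal proteins held between 17.9% and 28.1% and between 11.5% and 18.6%. The read depth behind these values is unknown. Of the melanocytic markers, SOX10 was high in both lines. PMEL, MLANA, TYR and DCT were near 0 in every A375 group (group means of 1.57 TPM or less), so A375 shows SOX10 without pigment genes. Of markers of other cells, KRT5, KRT1, PTPRC, CD3E and DPT had group means of at most 0.442 TPM, CDH5 of at most 1.67, PECAM1 of at most 6.38 and PDGFRB of at most 7.35. KRT14 reached 21.2 TPM in A375 and 2.52 in WM115. Of the markers of undifferentiated melanoma, AXL ranged over group means of 70.2 to 306 TPM and NGFR over 1.38 to 481 TPM, and SOX9 was 12.5 TPM in WM115 clone 1.2 and at most 1.89 in every other group.

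SOX10 and MITF levels set the comparison. In A375, SOX10 averaged 682 TPM in WT, 513 in clone 1.1, 443 in clone 1.2, 777 in clone 4.1 and 559 in clone 4.2. Only clone 1.2 passed the test against WT, with a log2 difference of -0.62 (limma, adjusted p = 0.0135). In WM115, SOX10 averaged 507 TPM in WT, 408, 187 and 439 in clones 1.1, 1.2 and 1.3, and 405 and 422 in clones 4.1 and 4.2, and only clone 1.2 passed (-2.44, limma adjusted p = 0.0192). MITF fell in more clones than SOX10 did. In A375 it averaged 22.3 TPM in WT and was lower in clones 1.1 (8.41 TPM, -1.31, limma adjusted p = 0.00165) and 4.2 (11.3 TPM, -0.96, adjusted p = 0.0268). In WM115 it averaged 128 TPM in WT and was lower in clones 1.2 (45.3 TPM, -2.01, limma adjusted p = 0.0253), 4.1 (10.5 TPM, -3.40, adjusted p = 0.000793) and 4.2 (16.5 TPM, -2.80, adjusted p = 0.00412). Without library 3 of WM115 clone 1.2 the SOX10 difference of that clone was -0.87 (limma adjusted p = 0.0119) and the MITF difference -0.97 (adjusted p = 0.238). The MITF call of A375 clone 4.2 was lost without its library 2 (limma adjusted p = 0.220), its library 3 or WT library 1, 2 or 3, and that of WM115 clone 1.2 also without WT library 1, 2 or 4 or with no filter (adjusted p = 0.0557). The SOX10 call of A375 clone 1.2 was lost with quantile normalization (limma adjusted p = 0.0765), and A375 clone 1.1 passed for SOX10 without its library 1 (-0.66, adjusted p = 0.0368). With only the 2 groups of a comparison in the fit, the limma adjusted p was 0.164 for SOX10 in WM115 clone 1.2, and for MITF it was 0.137 in WM115 clone 1.2, 0.0557 in A375 clone 1.1 and 0.401 in A375 clone 4.2.

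Summed over the members, the A375 clones with the lowest MITF did not sit at the bottom of their line. The 20 S genes summed to 1932 ± 1068 TPM in A375 WT (SD, n = 4), 2748 ± 1112 in clone 1.1 (n = 3), 2070 ± 852 in clone 1.2 (n = 4), 1517 ± 804 in clone 4.1 (n = 4) and 3012 ± 1077 in clone 4.2 (n = 3). The 30 G2/M genes summed to 2694 ± 1318 TPM in A375 WT, 3454 ± 1707 in clone 1.1, 2963 ± 694 in clone 1.2, 1978 ± 988 in clone 4.1 and 3391 ± 901 in clone 4.2. MITF averaged 16.5 TPM in clone 1.2 and 16.6 TPM in clone 4.1, also below the 22.3 TPM of WT. Clones 1.1 and 4.2, which had the lowest MITF of A375, thus had the highest sums, and clone 4.1 had the lowest. Every group overlapped WT, and neighbours in that order differed by less than their SD.

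In WM115 the S genes summed to 1741 ± 506 TPM in WT (n = 4), 2127 ± 515 in clone 1.1 (n = 5), 1534 ± 737 in clone 1.2, 1612 ± 348 in clone 1.3, 1552 ± 523 in clone 4.1 and 2534 ± 213 in clone 4.2 (each n = 3). The G2/M genes summed to 1823 ± 718 TPM in WT, 2539 ± 677 in clone 1.1, 1624 ± 723 in clone 1.2, 1645 ± 440 in clone 1.3, 1701 ± 572 in clone 4.1 and 2234 ± 253 in clone 4.2. Clone 1.2, with the lowest SOX10 and with MITF below WT, had the lowest mean in both sets, and its libraries overlapped those of WT. Clones 4.1 and 4.2, with the lowest MITF, stood on different sides of WT. Without library 3 of clone 1.2 the remaining 2 libraries averaged 1908 TPM for S and 1966 TPM for G2/M, above the WT means.

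**Figure D1:**
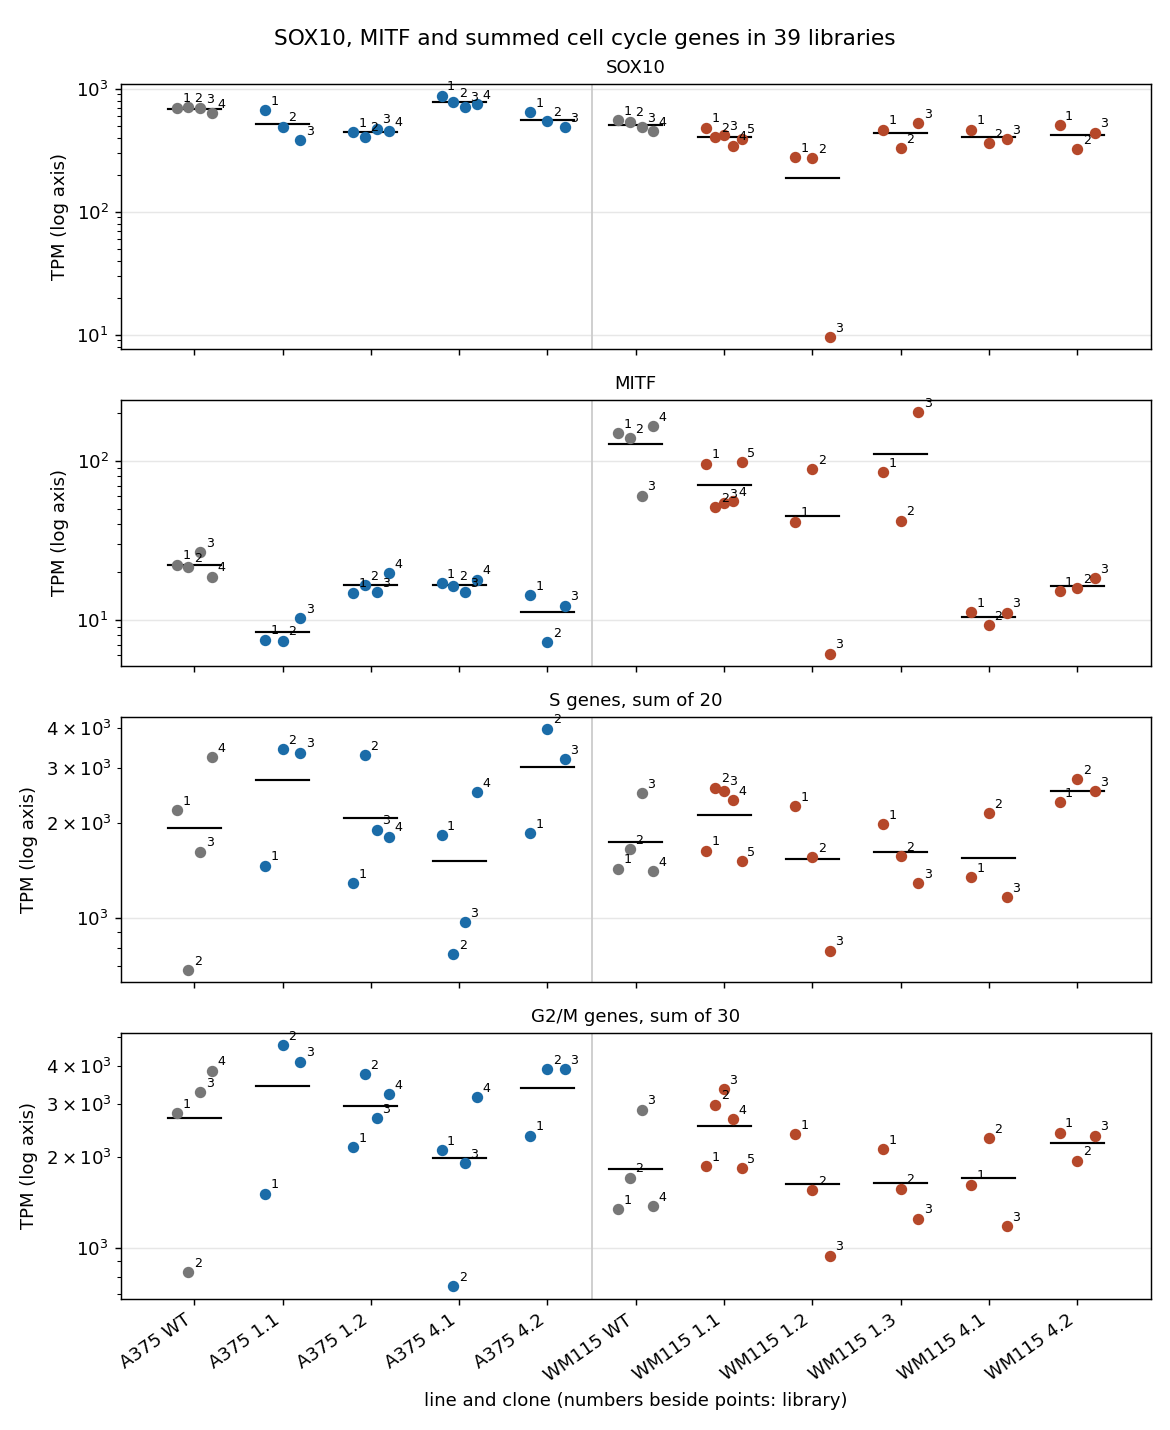
Summed TPM of the 20 S genes and the 30 G2/M genes, and the TPM of SOX10 and MITF, in each group of A375 and WM115. Points are libraries and lines are group means; the summed levels of every A375 clone overlap WT, and WM115 clone 1.2 library 3 is the low point for SOX10 at 9.56 TPM.

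Libraries of the same group differed widely, and the members moved as a block. In A375 the S genes summed to 2194, 682, 1620 and 3232 TPM in WT libraries 1 to 4, and the G2/M genes to 2798, 828, 3285 and 3864. WT library 2 was the lowest of its group in 50 of 50 members. In clone 4.1 the S sums were 1831, 766, 967 and 2503 TPM and the G2/M sums 2106, 743, 1911 and 3154, and library 2 was lowest in 48 members. Library 1 was the lowest in 50 members in clone 1.1, in 49 in clone 1.2 and in 50 in clone 4.2. Ribosomal protein genes took 27.3% of WT library 2 and 28.1% of clone 4.1 library 2, the highest shares of A375, and their part in the low sums was not tested. S and G2/M sums did not move in fixed proportion. The ratio of S to G2/M was 0.493 in WT library 3 and 0.506 in clone 4.1 library 3. It was 0.784 to 0.837 in the other WT libraries. WT library 3 and clone 4.1 library 3 had a high mitochondrial share (4.92% and 4.42%), but the ratio did not follow this share throughout A375. In clone 1.2 the ratio was 0.597, 0.871, 0.706 and 0.559 in libraries 1 to 4, with shares of 1.52%, 1.87%, 4.92% and 4.05%. It was 0.730 in clone 1.1 library 2 (3.43%) and 1.02 in clone 4.2 library 2 (2.78%). The part of the mitochondrial share was not tested.

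WM115 showed the same block movement. WT library 3 was the highest of its group in 49 of 50 members, with S and G2/M sums of 2482 and 2871 TPM, against 1403 to 1649 and 1341 to 1707 in the other WT libraries. Clone 4.1 library 2 was highest in its group for all 50 members, and clone 1.2 library 3 was lowest in its group for all 50 and lowest of all 21 WM115 libraries for 43. Clone 4.2 was the exception, since its 3 libraries had the lowest value of 18, 27 and 5 members and the highest of 20, 14 and 16. Across libraries the highest value of a member exceeded the lowest by 2.91-fold (CDT1) to 14.9-fold (CCNE2) in A375 and by 2.41-fold (MCM7) to 12.2-fold in WM115. The median fold was 6.58 for S and 6.23 for G2/M genes in A375, and 4.99 and 4.39 in WM115.

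Among the replication genes, MCM2 differed from WT in WM115 clone 4.1. MCM2, a subunit of the replicative helicase (chromosome 3, 127598223 to 127622436, GRCh38), measured 17.9, 28.8 and 16.7 TPM in WM115 clone 4.1, against 38.2, 42.3, 69.2 and 33.6 TPM in WT. All 3 libraries of the clone lay below all 4 of WT. The other WM115 clones overlapped WT, at 59.4, 56.3 and 63.3 TPM in clone 4.2, 37.2 to 65.1 in clone 1.1, 34.4 to 49.1 in clone 1.3 and 62.2, 46.5 and 26.3 in clone 1.2. Library 3 of clone 1.2 was thus also below every WT library. The log2 difference between clone 4.1 and WT was -1.06 (SE 0.27, limma adjusted p = 0.00878), and that between clones 4.1 and 4.2 was -1.49 (SE 0.29, adjusted p = 0.00340). The median difference of all genes on chromosome 3 was -0.35 in clone 4.1 against WT, and its part in the MCM2 value was not tested. In A375, MCM2 averaged 108 ± 49.0 TPM in clone 4.1 and 124 ± 67.2 in WT, with a maximum of 187 ± 56.7 in clone 4.2, and no clone passed the test. MCM5, of the same helicase, ranged over group means of 84.9 to 154 TPM in A375 and 91.5 to 144 TPM in WM115, lowest in A375 clone 4.1 and WM115 clone 1.2 and highest in clone 4.2 of each line.

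PCNA, the sliding clamp of the DNA polymerases, averaged 228 ± 132 TPM in A375 WT, 165 ± 88.3 in clone 4.1 and 350 ± 135 in clone 4.2. In WM115 it averaged 166 ± 41.0 TPM in WT, 149 ± 36.4 in clone 4.1 and 259 ± 61.1 in clone 4.2. TYMS, which makes thymidylate, ran from 142 ± 82.4 TPM in clone 4.1 to 293 ± 80.2 in clone 4.2 of A375, and from 218 ± 79.8 in clone 4.1 to 446 ± 46.6 in clone 4.2 of WM115. RRM2, the regulated subunit of ribonucleotide reductase, measured 310, 57.2, 201 and 577 TPM in A375 WT and 258, 717 and 558 in clone 4.2. In WM115 it measured 528, 632 and 449 TPM in clone 4.2 and 189, 192, 401 and 176 in WT. The WM115 clone lay wholly above WT, yet the log2 difference of 1.23 (SE 0.45) missed the threshold (limma adjusted p = 0.0573). In each of these 3 genes clone 4.1 of A375 was the lowest group of its line and clone 4.2 the highest.

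CCNE2, a cyclin that drives entry into S phase with CDK2, rose in 2 WM115 clones (chromosome 8, 94879770 to 94896678, minus strand, GRCh38). It measured 4.79, 7.95, 12.3 and 8.80 TPM in WT, 13.2, 23.6, 23.5, 26.8 and 15.0 in clone 1.1, and 16.8, 31.6 and 23.0 in clone 4.2. Every library of both clones exceeded every WT library. The log2 difference was 1.19 (SE 0.34, limma adjusted p = 0.0175) in clone 1.1 and 1.41 (SE 0.39, adjusted p = 0.0156) in clone 4.2. The call in clone 1.1 was lost without WT library 1 (0.98, limma adjusted p = 0.0740), and that in clone 4.2 without its library 2 (1.19, adjusted p = 0.0874) or WT library 1 (1.19, adjusted p = 0.0543). The median difference of chromosome 8 genes was 0.41 in clone 1.1 and 0.09 in clone 4.2, and its part was not tested. In A375, CCNE2 averaged 11.5 ± 7.02 TPM in WT and between 9.38 and 26.1 TPM in the clones, with no difference past the threshold. E2F1 averaged 43.5 ± 6.58 TPM in WM115 WT and 30.6 ± 18.1 to 53.4 ± 10.3 in the clones (1.2 lowest, 4.2 highest), and 26.9 ± 16.4 in A375 WT and 23.2 ± 13.1 to 49.4 ± 20.6 in the clones (4.1 lowest, 4.2 highest).

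Of the genes of G2 and mitosis, MKI67, whose protein coats mitotic chromosomes and serves as the standard stain for dividing cells, measured 62.7, 23.2, 43.7 and 113 TPM in A375 WT. It measured 36.8, 105 and 91.5 TPM in clone 1.1, 46.2, 98.1, 79.9 and 110 in clone 1.2, 53.6, 20.8, 37.0 and 87.1 in clone 4.1 and 75.3, 85.0 and 112 in clone 4.2. In WM115 it measured 31.8, 36.1, 57.6 and 28.3 TPM in WT, 44.9, 52.9 and 22.7 in clone 4.1, 56.8, 38.98 and 40.6 in clone 4.2. It measured 54.2, 24.6 and 10.7 TPM in clone 1.2, 48.4, 70.3, 70.4, 42.4 and 32.5 in clone 1.1 and 38.7, 31.6 and 29.6 in clone 1.3. No clone was separate from WT. The log2 difference of WM115 clone 4.1, where MITF was lowest, was 0.03, with a 95% interval of -0.81 to 0.87. That of A375 clone 1.1 was 0.44, with an interval of -0.63 to 1.52. Both intervals contain 0 and reach past a log2 difference of 0.81 upward.

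TOP2A averaged 122 ± 48.7 TPM in A375 WT and 90.6 ± 36.9 (clone 4.1) to 145 ± 25.96 (clone 1.2) in the A375 clones. In WM115 it averaged 99.4 ± 38.8 TPM in WT and 83.6 ± 43.3 (clone 1.2) to 148 ± 50.7 (clone 1.1) in the clones. CDK1, the mitotic kinase, had the same lowest and highest clone in WM115 (52.7 ± 26.5 and 110 ± 30.8 TPM, WT 68.8 ± 19.3) and ran from 48.9 ± 22.6 in clone 4.1 to 85.4 ± 41.7 in clone 1.1 of A375 (WT 71.5 ± 36.3). Its partner CCNB1 averaged 332 ± 186 TPM in A375 WT and 126 ± 54.8 in WM115 WT, with clone means of 221 to 409 and 135 to 205 TPM. PLK1, the kinase of mitotic entry and spindle assembly, averaged 166 ± 81.8 and 66.1 ± 43.6 TPM in the WT cells, with clone means of 122 to 228 and 45.7 to 83.1 TPM. CDC20 averaged 207 ± 111 and 72.3 ± 47.9 TPM in WT, with clone means of 139 to 306 and 53.9 to 101 TPM. FOXM1 averaged 91.7 ± 56.9 and 71.5 ± 29.2 TPM in WT, and MYBL2 90.7 ± 65.2 and 76.0 ± 42.2. Clone 4.1 of A375 had the lowest group mean of its line for each of these genes, and in the fit without pairing no difference from WT among them passed the threshold.

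Tested gene by gene, A375 clones showed no member past the threshold of adjusted p under 0.05 against WT with limma. In clone 1.1 the count was 0 of 50, against 1.04% of all 16692 genes, with 0 members at an unadjusted p under 0.05. The median member difference was 0.45 on the log2 scale, against 0.01 over all genes, and 49 members were positive. In clone 1.2 the count was 0 against 8.53% of all genes, with 1 member at an unadjusted p under 0.05, a median of 0.29 (all genes 0.07) and 45 positive. In clone 4.2 the count was 0 against 0.557%, with 0 at an unadjusted p under 0.05, a median of 0.57 (all genes 0.06) and 50 positive. In clone 4.1 the count was 0 against 1.31%, with 1 at an unadjusted p under 0.05, a median of -0.31 (all genes -0.02) and 2 positive. The 4 clones share the WT libraries, including WT library 2, so their medians are not independent of each other.

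A375 clone 4.1 and WT could be compared in pairs, because libraries of the same number deviated together (correlation across genes of 0.326 to 0.776 in the 4 pairs). With the replicate number as a block, 10 members were lower in clone 4.1, all of G2/M, against 5.14% of genes called lower. AURKB, the kinase of the chromosomal passenger complex (chromosome 17, 8204733 to 8210600, minus strand, GRCh38), measured 49.1, 21.7, 37.5 and 61.9 TPM in clone 4.1 and 114, 34.1, 105 and 155 in WT libraries 1 to 4. It was lower in every pair. Its log2 difference was -1.15, with SE 0.13 and adjusted p = 0.00441 in the blocked limma fit and SE 0.44 and adjusted p = 0.308 without the block. MYBL2 (-0.52, SE 0.07, limma adjusted p = 0.00792), FOXM1 (-0.47, adjusted p = 0.0297), TOP2A (-0.41, adjusted p = 0.0203), CDC20 (-0.54, adjusted p = 0.0248), CCNA2, CCNB1, CKS2, PLK1 and CENPA also passed with the block. Of the 50 members, 26 were lower in all 4 pairs and 22 in 3 pairs. No share of all genes was taken for these pair counts, so they cannot be read as particular to the members. No S member passed, and MCM2 was higher in pair 2 and lower in the other pairs. MITF was lower in all 4 pairs and SOX10 higher in all 4, and neither passed with the block (MITF -0.40, SE 0.12, limma adjusted p = 0.0858; SOX10 0.18, SE 0.07, adjusted p = 0.135).

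**Figure D2:**
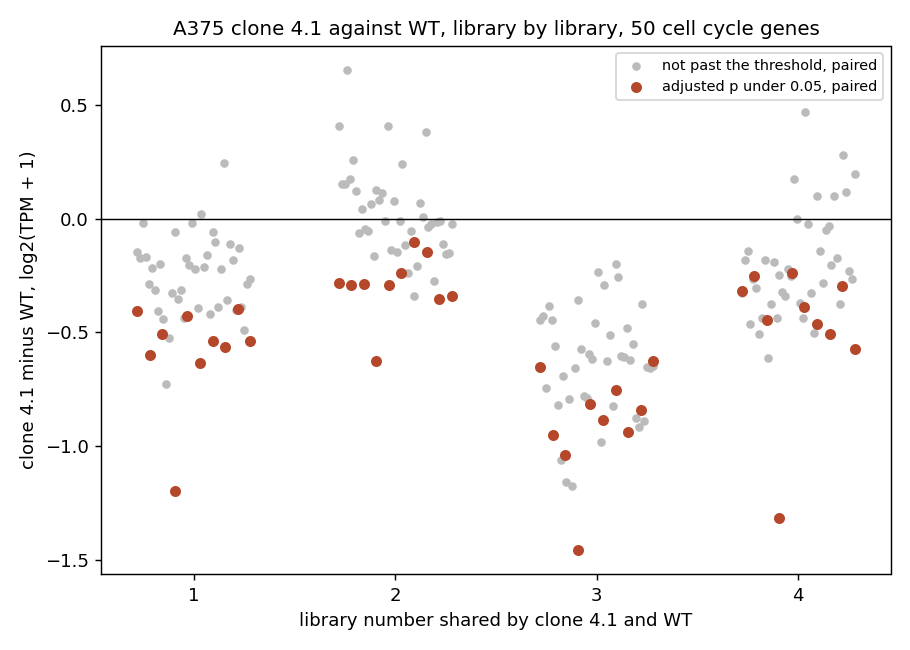
Difference between A375 clone 4.1 and WT in log2(TPM + 1) for each of the 50 members (points), in each of the 4 same-numbered pairs of libraries (x axis); the 10 members past the threshold in the paired fit are coloured. Most points lie below 0, with 26 members below 0 in all 4 pairs (no share of all genes taken) and AURKB lowest on average (-1.15).

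**Figure D3:**
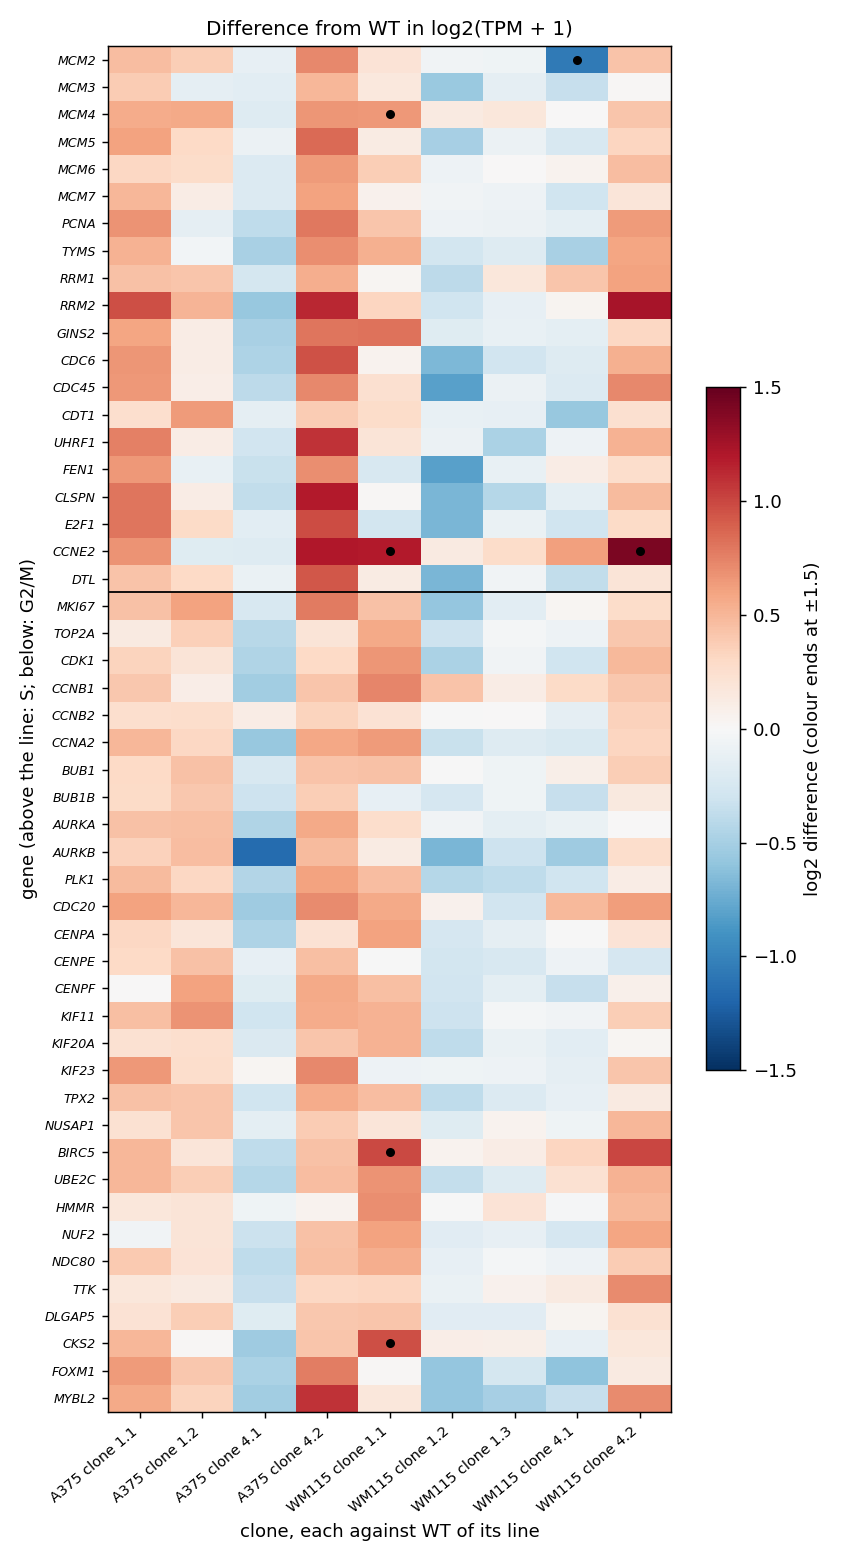
Difference of each member from WT of its line in log2(TPM + 1), by clone, with S genes above the black line and G2/M genes below it; dots mark adjusted p under 0.05. The A375 columns carry no dot, WM115 clone 1.1 carries 4, clone 4.1 carries 1 (MCM2, -1.06) and clone 4.2 carries 1 (CCNE2, 1.41).

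Of the WM115 clones, clone 1.1 had 4 members past the threshold against WT, all higher, against 6.3% of all genes called higher and 22% called in either direction. The 4 were CKS2, CCNE2, MCM4 and BIRC5. CKS2, the small subunit that docks CDK1 to its substrates (chromosome 9, 89311198 to 89316703, GRCh38), measured 237, 315, 351, 396 and 350 TPM in clone 1.1 and 152, 147, 172 and 198 in WT. The clone lay wholly above WT, with a log2 difference of 0.96 (SE 0.19, limma adjusted p = 0.00149). BIRC5 (survivin), of the chromosomal passenger complex, measured 54.4, 90.3, 105, 86.7 and 55.6 TPM in clone 1.1 and 25.6, 36.7, 68.9 and 31.2 in WT, a difference of 0.99 (SE 0.33, limma adjusted p = 0.0365). MCM4, of the replicative helicase, differed by 0.65 (SE 0.20, limma adjusted p = 0.0243) and lies on chromosome 8, as CCNE2 does; it was not past the threshold without WT library 1 or 4 or clone library 2 or 3. The median member difference was 0.39, against -0.12 over all genes. Leaving out 1 library moved the count to 1 (WT library 1), 2 (WT library 4 or clone library 2 or 3) or 9 (WT library 3). For these fits no share of all genes was taken. The share of ribosomal protein genes was 12.0% to 13.6% in WT and 16.6% to 18.3% in clone 1.1. This was not particular to clone 1.1. The share was 17.6% to 18.6% in clone 1.2, 18.1% to 18.4% in clone 4.1 and 16.2% to 18.6% in clone 4.2. In clone 1.3 it ran from 11.5% to 18.0%. The part of this share was not tested.

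The other WM115 clones had 1 member or none past the threshold. Clone 1.2 had 0 against 22.6% of all genes, with 2 members at an unadjusted p under 0.05 in limma and a median of -0.26 (all genes -0.02). Without its library 1 the count was 8, with no share of all genes taken. SOX9 (12.5 TPM), PECAM1 (6.38), CDH5 (1.67) and PDGFRB (7.08) had their highest WM115 group means in this clone, and their part was not tested. Clone 1.3 had 0 against 1.06%, with 0 at an unadjusted p under 0.05 and a median of -0.10 (all genes -0.03). Clone 4.1 had 1, MCM2, lower, against 15.6% of genes called lower, with a median of -0.13 (all genes -0.10). Clone 4.2 had 1, CCNE2, higher, against 6.71% called higher, with a median of 0.37 (all genes -0.10) and 49 members positive. Without its library 2 or without WT library 1 the count was 0, and without WT library 3 it was 5, again with no share taken. 4 members (CCNE2, RRM2, CLSPN and BIRC5) lay wholly above WT in clone 4.2, against 11.5% of all genes tested. 2 members (CCNE2 and CKS2) did so in clone 1.1, against 7.05%. MCM2 alone lay wholly below WT in clone 4.1, against 23.1%, and CLSPN, the claspin of the replication checkpoint, in clone 1.3, against 7.08%. The WM115 clones share the WT libraries too.

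Clones with the same region deleted were also compared with each other. Between A375 clones 1.1 and 1.2 no member passed, against 13.2% of genes, and none had an unadjusted p under 0.05 in limma. Between A375 clones 4.1 and 4.2 all 50 members were lower in clone 4.1, with a median of -0.86 (all genes -0.07). None passed, against 3.95% of genes. Unadjusted p was under 0.05 in limma for 10 of the 50 members and for 3722 of all 16692 genes, so the 10 cannot be read as particular to the members. Without library 4 of clone 4.1, 1 member passed. Between WM115 clones 1.1 and 1.2, 13 members were higher in clone 1.1, against 12.4% of genes called higher, and 10 of the 13 were G2/M genes. CDK1 measured 79.0, 134, 134, 130 and 74.0 TPM in clone 1.1 and 78.6, 53.8 and 25.7 in clone 1.2, a difference of 1.14 (SE 0.31, limma adjusted p = 0.00867). CKS2 differed by 0.87 (adjusted p = 0.00316) and CCNA2, the cyclin of S phase and G2, by 0.97 (adjusted p = 0.0160) in the same limma fit. Without library 3 of clone 1.2 the count was 1, without its library 2 it was 6 and without its library 1 it was 35. Without library 2, 3 or 4 of clone 1.1 it was 3, 3 and 4. For the fits without a library no share of all genes was taken. Between WM115 clones 4.1 and 4.2 only MCM2 passed, lower in clone 4.1, against 2.76% of genes called lower.

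With clones as the units, no member and no gene passed for R1 against WT (0% of 15287 genes), R4 against WT (0%) or R1 against R4 (0%) with limma. Unadjusted p was under 0.05 for 267, 339 and 742 genes and for 0 members in each. The median member difference was 0.20 for R1 against WT (all genes -0.01) and 0.14 for R4 against WT (all genes -0.03). Between the unedited lines, 2 members were lower in WM115 WT than in A375 WT, against 21.6% of genes called lower. CENPF, a protein of the outer kinetochore, measured 15.3, 21.8, 36.5 and 16.6 TPM in WM115 and 61.2, 25.0, 60.4 and 103 in A375 (difference -1.35, SE 0.40, limma adjusted p = 0.0196). MCM2 differed by -1.29 (SE 0.40, limma adjusted p = 0.0235). Without A375 WT library 2, 21 members passed. The count was 5 without WM115 WT library 3, 1 without A375 library 3 or WM115 library 2, and 0 without A375 library 1 or WM115 library 1 or 4. No share of all genes was taken in these fits, so their counts cannot be read as particular to the members.

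Other cell cycle genes gave similar counts. Of 37 other S genes and 44 other G2/M genes, none passed in A375 clones 1.1, 1.2 and 4.2. In A375 clone 4.1 the G2/M gene PIMREG, a mitotic regulator, was lower (-1.72, SE 0.39, limma adjusted p = 0.0346). PIMREG lies on chromosome 17, as AURKB does. The median difference of chromosome 17 genes was -0.10 in that clone, and its part was not tested. In WM115 clone 1.1, 1 S gene rose and 1 fell and 3 G2/M genes rose, led by PBK, a mitotic kinase (1.28, SE 0.28, limma adjusted p = 0.00399), which lies on chromosome 8. In clone 4.1, 3 S genes fell, led by POLD1, the catalytic subunit of DNA polymerase delta (-0.68, SE 0.14, limma adjusted p = 0.00272), and 1 G2/M gene fell, GAS2L3. In clone 4.2, 4 S genes rose, among them RAD51AP1 (1.16, SE 0.32, limma adjusted p = 0.0168) and RPA2, of the single-strand binding protein (0.64, SE 0.18, adjusted p = 0.0183), and 1 G2/M gene rose. In clone 1.2, 1 S gene and 2 G2/M genes fell, GAS2L3 (-0.86, limma adjusted p = 0.0189) and INCENP (-0.91, adjusted p = 0.0230). Among inhibitors of the cycle, CDKN1C (p57) rose in WM115 clones 1.1 (1.34), 4.1 (2.88, limma adjusted p = 0.000175) and 4.2 (2.32), in which the members were as reported above. CDKN1A (p21) was lower in WM115 clones 1.2 (-0.54) and 4.2 (-0.71) and higher in A375 clone 1.2 (0.70, limma adjusted p = 0.0334). Of all genes, 20.3% to 24.2% were called in WM115 clones 1.1, 1.2, 4.1 and 4.2, and 8.53% in A375 clone 1.2. The other cycle regulators chosen beforehand, CDKN1B, CDKN2A, CDKN2B, CCND1 and RB1, are not described here.

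To ask whether members followed SOX10 or MITF from library to library, slopes were fitted within groups, in log2 units of the gene per log2 unit of SOX10 or MITF. Members share libraries, so their slopes are not independent of each other. In WM115, 9 members rose with SOX10, against 7.23% of genes called higher, and all 50 slopes were positive (median 0.24, all genes 0.01). Of the 9, 8 were S genes, led by MCM3 (0.30, SE 0.06, limma adjusted p = 0.00305), E2F1 (0.33, SE 0.07, adjusted p = 0.00392) and DTL, which marks CDT1 for destruction (0.37, SE 0.08, adjusted p = 0.00455). The slopes rested on library 3 of clone 1.2. It had 9.56 TPM of SOX10 and 6.16 of MITF, with S and G2/M sums of 785 and 941 TPM. Libraries 1 and 2 of the clone had 279 and 272 TPM of SOX10, 41.4 and 88.4 of MITF, S sums of 2258 and 1558 and G2/M sums of 2381 and 1551. MCM3 measured 98.4, 86.3 and 33.0 TPM and E2F1 47.8, 32.1 and 11.8 TPM in the 3 libraries. Without library 1 the count was 3. Without library 3 no member passed and 39 of 50 slopes were negative, among them E2F1 (-0.18) and DTL (-0.24), while MCM3 was at 0.02 (limma adjusted p = 0.976).

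The relation with MITF in WM115 also changed with that library. With every library, no member passed, against 6.98% of genes called higher and 2.97% called lower. 27 slopes were positive and 1 member had an unadjusted p under 0.05 in limma. Without library 3 of clone 1.2, 36 of 50 members fell as MITF rose, 11 of 20 S genes and 25 of 30 G2/M genes, against 8.31% of genes called lower and 7.63% called higher. All 50 slopes were negative, with a median of -0.45 (all genes -0.01). NDC80, of the kinetochore's microtubule-binding complex (chromosome 18, 2571511 to 2616635, GRCh38), measured 18.2, 23.2, 48.0 and 17.1 TPM in WT libraries 1 to 4, in which MITF was 149, 139, 60.5 and 164 TPM. In clone 1.1 it measured 25.4, 46.6, 52.4, 41.6 and 23.1 TPM, with MITF at 96.2, 51.0, 54.4, 55.6 and 98.1. In WT the library with the least MITF had the most NDC80, and in clone 1.1 the 3 libraries with the least MITF had the 3 highest values. In clones 4.1 and 4.2, and in what was left of clone 1.2, the library with the least MITF also had the most NDC80. In clone 1.3 NDC80 measured 32.0, 25.4 and 16.6 TPM, with MITF at 85.0, 42.05 and 202 TPM. There the library with the least MITF had the middle NDC80 value, and the library with the most MITF had the lowest. Over all WM115 groups, without library 3 of clone 1.2, the slope of NDC80 was -0.67 (SE 0.13, limma adjusted p = 0.00206). That of UHRF1, which carries DNA methylation through replication, was -0.58 (SE 0.11, limma adjusted p = 0.00168), and that of RRM2 was -0.75 (SE 0.15, adjusted p = 0.00299). MKI67 (-0.44, limma adjusted p = 0.0594), PCNA (-0.30, adjusted p = 0.0736), E2F1 (-0.14, adjusted p = 0.368) and CKS2 (-0.08, adjusted p = 0.673) did not pass. Of the other cell cycle genes, 22 of 37 S genes and 33 of 44 G2/M genes fell with MITF in the same fit. With a high or low mitochondrial share of the library as a further term, 39 members fell (against 9.5% of genes called lower), and with median-of-ratios scaling 32 fell (against 8.35%). That the relation is given without this library was decided after the data were seen. Leaving out 1 further library gave 11 members (without WT library 3) to 48 (without clone 1.3 library 2), with no share of all genes taken.

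**Figure D4:**
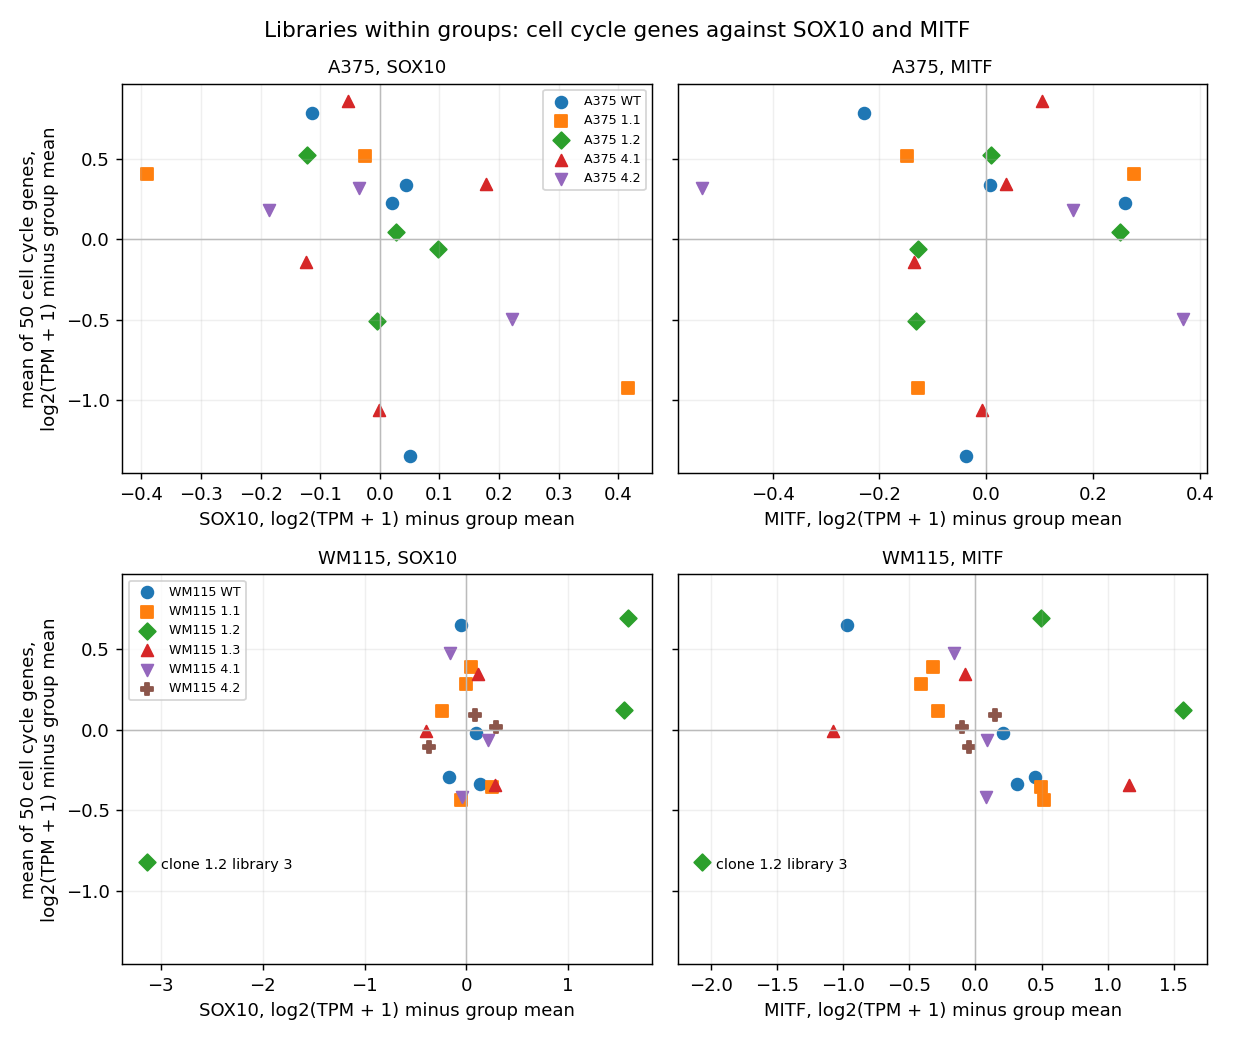
Mean deviation of the 50 members from their group mean against the deviation of SOX10 and of MITF, on the log2(TPM + 1) scale, for each library of A375 and WM115. WM115 clone 1.2 library 3 lies apart at the lower left (MITF -2.07, SOX10 -3.14, members -0.82); WT library 3 has low MITF and high members (MITF -0.98, members 0.65), while libraries 1 and 2 of clone 1.2 have both above their group mean (MITF 0.50 and 1.57, members 0.69 and 0.12), a mean that includes library 3.

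In A375, no member passed for SOX10 within groups, against 6.15% of genes called higher and 1.43% called lower, while all 50 slopes were negative (median -1.73, all genes 0.01). Unadjusted p was under 0.05 in limma for 16 of 50 members and for 4813 of all 16691 genes, so the 16 cannot be read as particular to the members. SOX10 ran from 630 to 706 TPM in WT and from 381 to 667 TPM in clone 1.1, where its deviations from the group mean were widest (-0.39 to 0.42 on the log2 scale), so a slope per log2 unit reaches beyond the range of every group. The scaling of the libraries changed the count. After median-of-ratios scaling 47 members were lower, against 13.2% of genes called lower and 14.8% called higher, led by AURKA (-2.82, limma adjusted p = 0.00689). After quantile normalization 24 were, against 13.7%. These fits take the libraries as independent, but same-numbered libraries deviated together between clone 4.1 and WT and between clones 1.1 and 4.2 (correlation across genes of 0.435 to 0.740 in the 3 pairs of the latter). With both sets of pairs as blocks, no member and no gene passed with limma (0%), with or without median-of-ratios scaling, and all 50 slopes were negative (median -1.22 without the scaling, all genes -0.07). Unadjusted p was then under 0.05 for 0 members and 959 genes, and with the scaling for 16 members and 1035 genes. For MITF within groups of A375, no member and no gene passed (0%) with limma. 28 slopes were positive as deposited, 0 after median-of-ratios scaling and 50 with the pairs as blocks, so no direction can be given. Unadjusted p was under 0.05 for 227 genes and 0 members, and with the blocks for 748 genes and 28 members.

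Across the 11 group means, no member passed for SOX10, against 0.203% of genes called higher and 0.445% called lower. 38 slopes were positive and 0 members had an unadjusted p under 0.05 in limma. For MITF no member passed either, against 0.386% and 0.0916%. 12 slopes were positive and 0 members had an unadjusted p under 0.05 in limma.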

How the data were processed

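RNA-seq of poly-A-selected total RNA was processed with DRAGEN on GRCh38, per the submitters' processing notes; versions and the annotation release are not given in the sources used here, nor is strand. The authors deposited TPM values per gene, without counts. The table has 60871 lines with 60671 distinct identifiers; 200 repeated lines, identical to their partners, were used once. 6 value columns that match no sample were not used. Positions come from GENCODE 29 (GRCh38).

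Values were analysed as log2(TPM + 1), and differences are on that scale, which understates changes of low genes. Genes at 1 TPM or more in at least 3 libraries of a line were kept: 16692 in A375 and 16997 in WM115, 16126 for WT against WT and 15287 for clones as units, all 50 members included. limma 3.58.1 (R 4.3.3) was fitted across all genes of a line, with all its groups sharing the spread, with Benjamini-Hochberg adjustment over all genes. The exceptions are WT against WT (both WT groups) and the fits over group means (clones as units, and slopes across groups), which have line as a term; slopes within groups have group as a factor. Scripts were tested on simulated data.

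Replicate numbers come from the titles. Deviations from group means over all genes correlated in all 4 same-numbered pairs of A375 clone 4.1 and WT (0.326 to 0.776), so the blocked fit is given for that comparison. In no other comparison made here did every pair exceed 0.1. Those of A375 clones 1.1 and 4.2, which were not compared, did, so slopes within A375 groups were also fitted with both sets of pairs as blocks, chosen after seeing the data.

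The members and lists were chosen with earlier results of these data known. Named genes were SOX10, MITF, the 15 members described in every group, in each comparison the 3 members of smallest adjusted p in each direction past the threshold, and the 2 such genes of the other cell cycle lists; the remaining named genes were chosen after their values were seen. Alternatives were other pseudocounts, filters, scalings and minimum sizes, a high or low mitochondrial share (2.5% in A375, 7.5% in WM115) as a term, the compared groups alone, the replicate block, and leaving out libraries, clones or groups. Markers were SOX10, MITF, PMEL, MLANA, TYR, DCT and S100B (melanocytic), AXL, NGFR and SOX9 (undifferentiated melanoma), KRT5, KRT14 and KRT1 (keratinocyte), PECAM1 and CDH5 (endothelial), PTPRC and CD3E (leukocyte) and PDGFRB and DPT (fibroblast).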

Additional observations from a re-analysis of the deposited data

Results flagged for a closer look

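RRM2 in WM115 WT library 3 stood apart from its group, at 401.4 TPM against 176 to 192 TPM in the other 3 WT libraries. The gap to the nearest library was 0.926 of the group's range. Of 95 such tests, each of 1 value in 1 group of 4 or more libraries, it alone passed. Chance gives a flag in about 1 of 20 such tests, so 1 flag among 95 is not more than chance gives. The tests also share libraries. The same library had the highest value of 49 of 50 members in its group.

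WM115 clones 1.1 and 1.2, whose deleted region is the same, differed in 13 members, all higher in clone 1.1 (limma, all genes adjusted), against 12.4% of all genes called higher. Leaving out 1 library moved that count between 1 (without clone 1.2 library 3) and 35 (without clone 1.2 library 1), with no share of all genes taken. WM115 clones 4.1 and 4.2 differed in 1 member, MCM2, lower in clone 4.1 by -1.49 on the log2 scale. Each difference was tested directly between the 2 clones.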

How the results depend on the processing

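TPM without counts leaves the depth unknown, each clone is 1 clone, and few libraries per group limit what can be called. Of the alternatives run on the 23 member counts, 354 gave a count within 1.5 times the reported one and 90 did not. Where no share of all genes is printed beside a count, that count cannot be read as particular to the members. The count in WM115 clone 1.1 against WT was 8 with median-of-ratios scaling, 2 with no filter or with the mitochondrial set as a term, and 1 with a minimum log2 difference of 1. In WM115 clone 4.2 it was 4 with median-of-ratios scaling and 2 with quantile normalization or with the compared groups alone. Between WM115 clones 1.1 and 1.2 it was 23 with median-of-ratios scaling, 3 with no filter, 5 with the minimum difference and 2 with the mitochondrial set as a term. Between the WT lines it was 0 with no filter and 4 with median-of-ratios scaling. With SOX10 within groups of A375 it was 47 with median-of-ratios scaling, 24 with quantile normalization and 45 with median-of-ratios scaling and the mitochondrial set together. Without WM115 clone 1.2 library 3, the count with MITF in WM115 was 39 with the mitochondrial set and 32 with median-of-ratios scaling, and with SOX10 it was 0 in both; the SOX10 slopes then were -0.14 and -0.043 for MCM3, -0.19 and -0.27 for E2F1 and -0.41 and -0.41 for DTL. Without that library alone they were 0.022 (MCM3), -0.18 (E2F1) and -0.24 (DTL). The fits without that library that also changed the scaling or added the mitochondrial set were chosen after seeing the data. So was the fit with median-of-ratios scaling and the mitochondrial set together in A375. The cause of these changes was not tested.

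Leaving out 1 library gave 1 to 9 members in WM115 clone 1.1, 0 to 8 in clone 1.2, 0 to 5 in clone 4.2, 0 to 1 between A375 clones 4.1 and 4.2, 1 to 35 between WM115 clones 1.1 and 1.2, 0 to 21 between the WT lines, 0 to 13 with SOX10 and 0 to 36 with MITF within groups of WM115; a further library left out gave 11 to 48 with MITF and 0 to 0 with SOX10. The other counts did not change when 1 library, clone or group was left out. The MITF difference of WM115 clone 1.3 from WT ranged from -0.99 to 0.13 (without its library 2), and the WM115 SOX10 slopes ranged from -0.18 to 0.37 for E2F1 and from -0.24 to 0.42 for DTL.

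With the replicate block the count was 10 in A375 clone 4.1, whose numbers pair with WT. The other groups share only numbers with the group they were compared with; there the block gave 25 members in WM115 clone 1.1, all higher, against 9.59% of genes called higher, with SOX10 (-0.30, limma adjusted p = 0.0331) and MITF (-0.94, adjusted p = 0.0388) also past the threshold, and 0 in clones 4.1 and 4.2, and it moved no other count of members.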
